A study of Mus musculus with 9 samples.

Results

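Iigp1, Irf7, Bst2 and Tap1 are 4 genes of the interferon response, and they were taken by name from a deposited table of 2402 genes in mouse bone marrow cells. All 4 were found there, and all 4 passed a filter on low values that asked for 10 normalized counts or more in 2 or more libraries and was met by 2341 genes. The labels describe 9 samples in 4 groups, sorted from male C57BL/6 mice in which a Flt3-driven Cre had been crossed to the mTmG reporter, so that every group carries both alleles. The reporter makes the red protein Tom (Tomato) until a cell or one of its ancestors has made Cre, and GFP from then on. Of the groups, 3 are megakaryocyte progenitors (MkP; Lin-, cKit+, Sca1-, CD150+, CD41+), namely GFP+ MkP at 3 months (3 samples, called young), GFP+ MkP at 18 to 20 months (2 samples, called old) and Tom+ MkP of the old age (2 samples). The remaining group is Tom+ haematopoietic stem cells (HSC; Lin-, cKit+, Sca1+, CD150+, Flk2-) of the old age, with 2 samples. A GFP+ cell therefore reports only a history of Flt3-driven Cre, and the sources used here do not say whether animals were pooled or whether samples came from separate animals.

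The rows of the table carry no sample names, so no library could be tied to a sample, an age or a reporter colour, and no comparison between groups was made. Libraries are numbered 1 to 9 by row, as a name only. They were marked by 1 gene instead, Ly6a, which encodes the Sca1 antigen of the sort. Ly6a was 4256 normalized counts in library 3 and 5772 in library 4, and between 20.98 and 187 in the other 7, so a threshold of 1000 set libraries 3 and 4 apart. These are called the Ly6a-high libraries here, and the other 7 the Ly6a-low libraries. Neither set could be tied to the study's groups, because the rows carry no sample names. Ly6a is itself known to be induced by interferon, so this mark is not independent of the pathway described. Of 12 listed stem cell markers 8 were measured, Ly6a among them, and the other 7 summed to 20991 and 10385 in libraries 3 and 4 and to between 146 and 1517 in the others. Of 13 megakaryocyte and platelet markers 8 were measured, summing to 3075 and 8813 in the Ly6a-high libraries and to between 74949 and 141086 in the others. The marker levels thus went with the stem-like and progenitor-like names that the rule gives to the sets. Reads summed over the table's genes ranged from 1790670 to 4373460 per library.

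Interferons are secreted proteins that warn cells of infection. Type I and type II interferons bind their own receptors, whose JAK kinases activate STAT proteins. STAT proteins together with IRF9 bind a DNA element called the interferon-stimulated response element, while STAT dimers bind the gamma-activated site. In bone marrow, interferon signals are known to act on haematopoietic stem cells and on the megakaryocyte lineage. Among the 4 genes, Irf7 encodes a transcription factor that drives type I interferon genes, Bst2 encodes tetherin, a membrane protein that holds budding viruses at the cell surface, Iigp1 encodes a GTPase that attacks the vacuoles of intracellular parasites, and Tap1 encodes a subunit of the transporter that brings peptides to MHC class I.

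In the mm10 assembly with GENCODE M21, Irf7 lies on the minus strand at chr7:141262706-141266481, Bst2 on the minus strand at chr8:71534255-71537456 and Tap1 on the plus strand at chr17:34187553-34197225, all 3 protein-coding. The Irf7 locus overlaps Phrf1 and the Tap1 locus overlaps Psmb9. Neither neighbour is among the genes of the table, and reads from overlapping genes cannot be separated in it.

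Windows of 300 bases around the gene start (250 before it and 50 after it) were taken from RefSeq, build GRCm38.p6, and searched on both strands for the core of the interferon-stimulated response element (GAAA, any 2 bases, GAAA) and for the core of the gamma-activated site (TTC, any 3 bases, GAA). Printed here are the 250 bases before the start of Bst2, the only member of the 4 with a match among the 3 that had a window, and short stretches of 3 interferon-inducible GTPase genes, the class of Iigp1. Capitals mark the matches, and all bases shown lie before the gene start in both annotations. The Bst2 stretch is chr8:71537473-71537722 on the minus strand, Igtp is chr11:58199502-58199551, Gbp3 is chr3:142559979-142560025 and Gbp7 is chr3:142530263-142530312, the last 3 on the plus strand.
Bst2: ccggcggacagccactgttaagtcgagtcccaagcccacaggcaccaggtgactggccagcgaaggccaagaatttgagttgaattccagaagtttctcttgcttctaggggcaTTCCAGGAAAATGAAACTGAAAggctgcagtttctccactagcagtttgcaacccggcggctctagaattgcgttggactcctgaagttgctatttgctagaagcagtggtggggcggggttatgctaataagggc
Igtp: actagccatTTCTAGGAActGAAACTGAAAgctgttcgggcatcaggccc
Gbp3: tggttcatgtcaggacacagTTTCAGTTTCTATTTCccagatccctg
Gbp7: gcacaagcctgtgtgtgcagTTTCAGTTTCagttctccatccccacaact

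In Bst2, 2 overlapping response element cores start 130 and 124 bases before the RefSeq start and run on from a gamma-activated site core at 136 bases. Igtp holds both cores within 45 bases of its start. In Gbp3 and Gbp7 the response element core lies on the opposite strand, with 2 overlapping copies in Gbp3, and Gbp7 also holds gamma-activated site cores 106 and 87 bases before its start, outside the stretch printed. The windows of Irf7 and Tap1 hold neither core, and Iigp1 was not matched in the table of windows. A match in these letters is a description of the window and not a bound site.

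Irf7 was 103 normalized counts in library 1, 139 in library 2, 548 in library 3, 740.2 in library 4, 193 in library 5, 105 in library 6, 157 in library 7, 168 in library 8 and 272 in library 9. The Ly6a-high libraries held the highest values and did not overlap the others, a pattern shared by 51.0% of all genes. Library 4 was 7.16-fold above library 1, the lowest (95% exact counting interval 5.52 to 9.43), and the lower of the Ly6a-high libraries, library 3, was 2.01-fold above library 9, the next (interval 1.75 to 2.31). Library 4 also exceeded library 3, by 1.35-fold (interval 1.20 to 1.52). Among the 7 Ly6a-low libraries, library 9 was 1.41-fold above library 5 (interval 1.17 to 1.69), and no other neighbours in the order differed beyond counting error. Libraries farther apart could differ, and library 9 was 2.64-fold above library 1 (interval 2.01 to 3.50). All intervals given here cover counting error only, since reads without molecular identifiers are not independent molecules, and they do not cover differences between animals.

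Bst2 was 133, 159, 505, 428, 113, 171, 154, 177 and 173 normalized counts in libraries 1 to 9. As for Irf7 and for 51.0% of all genes, libraries 3 and 4 were above all others. Library 3 was 4.47-fold above library 5, the lowest (interval 3.60 to 5.59), and library 4 was 2.42-fold above library 8, the highest of the Ly6a-low libraries (interval 2.01 to 2.91). Library 3 was 1.18-fold above library 4 (interval 1.02 to 1.36), an order that turned under median-of-ratios scaling. Within the 7 Ly6a-low libraries Bst2 spanned 1.57-fold (interval 1.22 to 2.02), and none of the neighbours in that order differed beyond counting error.

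Iigp1 had by far the widest spread of the 4 genes. It was 26.25 normalized counts in library 1, 41.2 in library 2, 1414 in library 3, 339 in library 4, 8.69 in library 5, 8.39 in library 6, 6.14 in library 7, 37.7 in library 8 and 47.8 in library 9. Library 3 stood alone at the top, library 4 was next, and the Ly6a-low libraries lay far beneath. These 2 libraries were also the highest in 51.0% of all genes. Library 3 was 4.18-fold above library 4 (interval 3.67 to 4.76) and library 4 was 7.08-fold above library 9 (interval 5.41 to 9.40). The 230-fold ratio of library 3 to library 7 rests on 4 reads in library 7, with an interval from 89.7 to 847, and without library 3 the widest ratio was 55.2-fold.

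Iigp1 also divided the Ly6a-low libraries. Libraries 5, 6 and 7 had 4 to 8 reads each and held the 3 lowest values, as they did in 14.0% of all genes. Library 1, the next, was 3.02-fold above library 5 (interval 1.22 to 8.15). Among libraries 1, 2, 8 and 9, no neighbours in the order differed from each other beyond counting error. Libraries farther apart in that order were not compared. Over the 7 Ly6a-low libraries Iigp1 spanned 7.79-fold (interval 2.90 to 29.4), against 2.64-fold for Irf7 and 1.66-fold for Tap1.

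Tap1 was 3153 normalized counts in library 1, 3902 in library 2, 2329.6 in library 3, 1873 in library 4, 2352 in library 5, 2879.8 in library 6, 3063 in library 7, 2923 in library 8 and 3869.8 in library 9. The Ly6a-high libraries held the lowest values on this scaling, as in 40.8% of all genes, but not when reads were scaled to the table total. Library 5 was only 1.01-fold above library 3 (interval 0.9496 to 1.07). The ratio of library 2, the highest, to library 4 was 2.08-fold (interval 1.95 to 2.23).

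**Figure D1:**
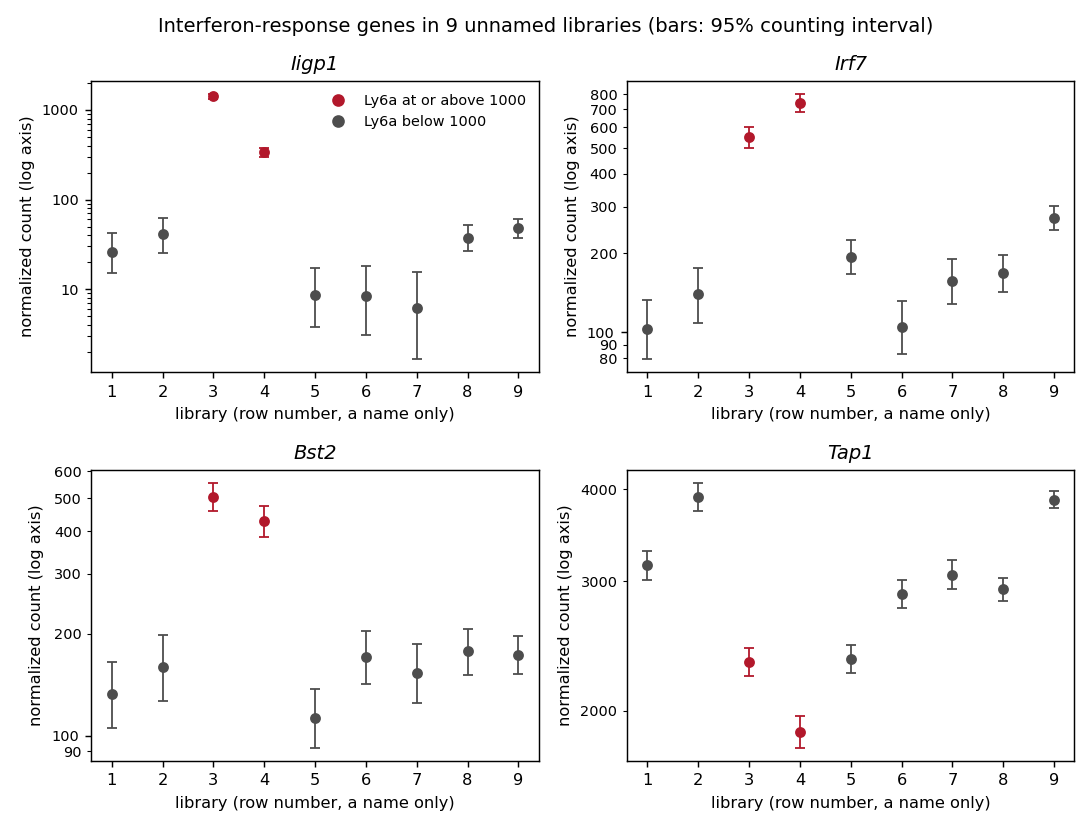
Normalized counts (log axes) of Iigp1, Irf7, Bst2 and Tap1 in the 9 unnamed libraries, with 95% exact counting intervals as bars; red points are the 2 libraries with Ly6a of at least 1000. Iigp1, Irf7 and Bst2 were highest in libraries 3 and 4, whereas Tap1 was lowest there on this scaling but not on scaling to the table total, and Iigp1 was also low in libraries 5, 6 and 7.

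Reads of all 4 genes differed between libraries beyond counting error (chi-square test of reads, Benjamini-Hochberg adjustment over 2341 genes), as did those of 98.7% of all genes, so that call sets none of the 4 apart. A range of at least 4-fold, on values with 1 added, was reached by Iigp1, Irf7 and Bst2 but not by Tap1, against 66.4% of all genes. For Bst2 this was lost under median-of-ratios scaling (ratio 2.95), without library 3 (3.79) and without library 5 (3.80). Libraries 3 and 4 held the highest 2 values in 51.0% of all genes and the lowest 2 in 40.8%. The table is thus dominated by genes that differ between these 2 libraries and the rest, and the sources used here do not say how its genes were chosen. In bulk samples, fewer cells of a type and less RNA per cell cannot be told apart.

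The scaling of libraries 3 and 4 mattered for the smaller differences. Relative to the median library, scaling reads to the total of the table raised library 3 by 0.65 and library 4 by 0.50 on the log2 scale, and median-of-ratios scaling moved them by -0.60 and -0.33. Iigp1, Irf7 and Bst2 were highest in libraries 3 and 4 under all 3 scalings. Bst2 was higher in library 3 than in library 4 under the deposited and the table-total scaling, and higher in library 4 under median-of-ratios scaling. Tap1 was lowest in libraries 3 and 4 under the deposited and the median-of-ratios scaling. Under scaling to the table total it was instead second highest in library 3, sixth in library 4, and lowest in libraries 5, 6 and 7. No direction is therefore given for Tap1.

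**Figure D2:**
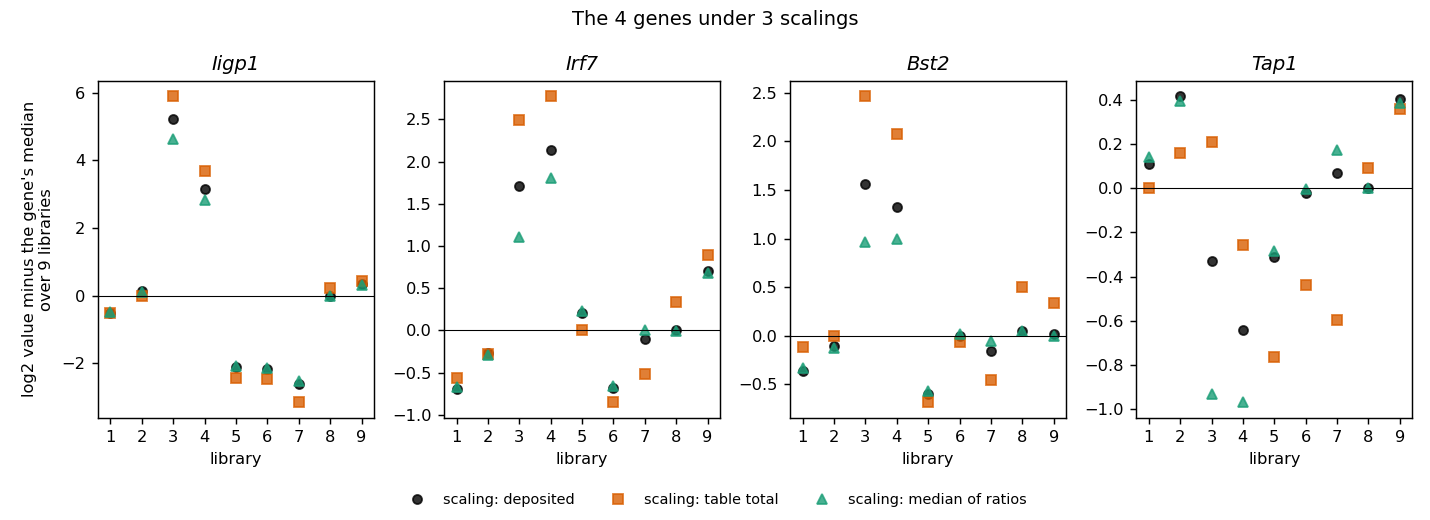
The same 4 genes under the deposited scaling (circles), scaling to the table total (squares) and median-of-ratios scaling (triangles), each as log2 value minus the gene's median over the 9 libraries. Libraries 3 and 4 are at the top for Iigp1, Irf7 and Bst2 in every scaling, and change place for Tap1.

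The rest of the pathway was read from a list of 214 symbols, of which 59 were measured, including the 4 genes. All 59 passed the filter. Of these, 52 had a range of at least 4-fold, beside 66.4% of all genes. The median range was 11.3-fold, against 6.16-fold over all genes. Ly6a was set aside for further counts unless stated, because it marked the libraries, which left 58 genes. Libraries 3 and 4 held the highest 2 values in 56 of the 58, or 53 of 54 without the 4 members, beside the 51.0% of all genes. The exceptions were Tap1 and Irf5. The lower of these 2 libraries was at a median of 2.02-fold the highest Ly6a-low library, against 1.03-fold over all genes. This gap was beyond counting error in 50 of the 58 genes, beside 38.1% of all genes, and at least 4-fold in 14, beside 10.2%. Of the 58 genes 5 passed the filter only through libraries 3 and 4, which had to make them high there. Among the 53 that passed it on the Ly6a-low libraries alone, 51 were highest in libraries 3 and 4, beside 46.4% of the 2133 genes that did so, the gap was beyond counting error in 45, beside 34.9%, and at least 4-fold in 9, beside 6.05%. Under median-of-ratios scaling 46 of the 58 had this pattern, beside 38.6% of all genes, and under table-total scaling 57, beside 55.6%. The list was written with earlier results of these data known, and the counts describe it without a test.

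**Figure D3:**
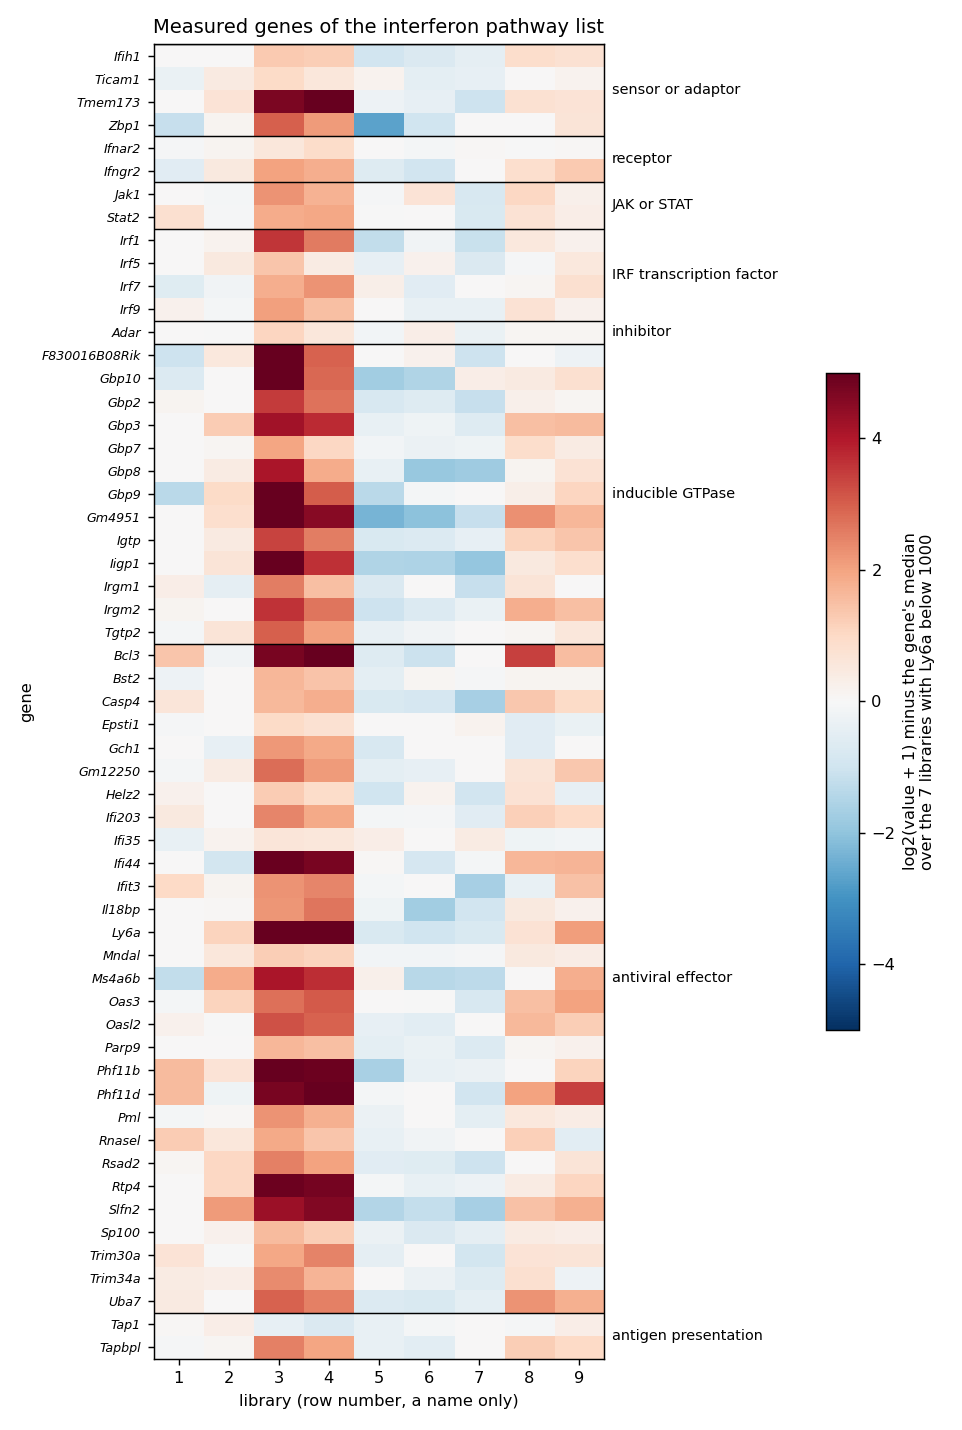
Measured genes of the interferon pathway list by role, apart from those not reported here, in 9 libraries, coloured by log2(value + 1) minus the gene's median over the 7 libraries with Ly6a below 1000 (values beyond 5 in either direction share the end colour). Libraries 3 and 4 are red for nearly all genes, Tap1 being pale blue in both on this scaling but not on scaling to the table total, and libraries 5, 6 and 7 are pale blue for many.

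No interferon gene was among the measured genes of the list. Of the sensors and adaptors, Tmem173, which encodes STING, was 974 in library 3 and 1221 in library 4, and 16.9 to 61.9 normalized counts in the Ly6a-low libraries. Zbp1, a sensor of Z-form nucleic acid, was 105 and 57.2 there and at most 19.6 elsewhere. Ifih1, the RNA sensor MDA5, reached 153 and 145, but library 8 was close at 113 and the gap was within counting error (1.28-fold, interval 0.985 to 1.67). Ticam1, the adaptor TRIF, had the narrowest range of these, from 33.6 to 93.2.

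Of the receptor genes, Ifnar2, a chain of the type I receptor, was 1269 and 1619 in libraries 3 and 4 and lay between 801 and 922 in the 7 others, a 2.02-fold range in all. Ifngr2, a chain of the type II receptor, was 271 and 232 against 33.6 to 167. The kinase gene Jak1 was 1746 and 1232 against 210.3 to 744. Stat2, which encodes a STAT protein of the type I response, was 97.9 and 103 against 15.4 to 47.6. These are levels of single genes over libraries, and levels of different genes are not compared because the values are not per length.

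Among transcription factors of the IRF family, Irf1 was 2070.1 in library 3, 1061 in library 4 and 73.9 to 252 in the others, a wider spread than that of Irf7. Irf9, the DNA-binding partner of STAT proteins and named here after its values were seen, was 1466 and 999 against 269 to 581. Irf5 was 123 in library 3 but 60.6 in library 4, which lay below library 9 at 67.4. Of the inhibitors only Adar, an RNA-editing enzyme that limits sensing of the cell's own RNA, was measured, with 58.3 to 158 and a gap within counting error.

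The inducible GTPases, the class of Iigp1, had the largest median gap of the classes on the deposited scaling. It was 3.82-fold between the lower of libraries 3 and 4 and the highest Ly6a-low library, against 1.03-fold over all genes. Libraries 3 and 4 were highest in all 10 of the 13 measured GTPases that passed the filter on the Ly6a-low libraries alone. Over all 2133 genes that did so, the share was 46.4%. The other 3, Gbp9 and Gbp10 among them, passed it only through libraries 3 and 4, so their place there was fixed by the filter, and the median gap includes them. Gm4951, another GTPase gene of the Iigp1 type, had the widest range of the class, from 2.17 in library 5 to 902 in library 3, with 367 in library 4 and at most 76.5 elsewhere. Gbp10, a guanylate-binding protein, was 399.9 in library 3 and 49.2 in library 4, and had 1 read in library 5. Gbp7 had the narrowest range of the class, from 315 to 1498, and library 8 at 707 was close to library 4 at 788. Members of these families resemble each other in sequence, so some reads may be shared between copies.

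The GTPase class also separated the Ly6a-high libraries from each other. On the deposited scaling all 13 members were higher in library 3 than in library 4, each beyond counting error. The median ratio was 2.10-fold on values with 1 added. In 7 of the 13 the ratio was above 2-fold, beside 8.80% of all genes. Over all genes library 3 was the higher in 50.4%, and the median ratio was 1.01-fold. Of the 28 antiviral effectors 20 were higher in library 3, none by more than 2-fold. Irf7 was in the minority of 12 of the 58 genes that were higher in library 4, together with Tmem173, Ifnar2, Stat2 and Bcl3. All 13 GTPases were higher in library 3 under the other scalings too, but the intervals and the median ratio are not given for those. The count over the 58 genes fell from 46 to 36 under median-of-ratios scaling, beside 37.0% of all genes. With 1 library on each side this compares libraries, and no cause was tested.

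**Figure D4:**
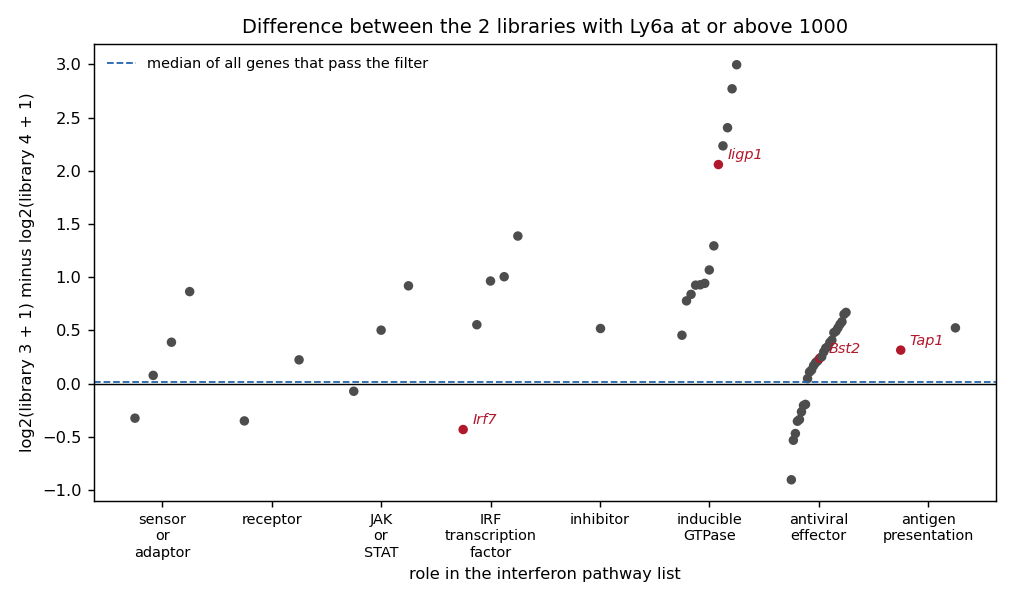
Difference between library 3 and library 4, as log2(value + 1), for 58 genes of the interferon pathway list by role (each point a gene; red, the 4 named genes; dashed line, the median of 2341 genes). The 13 inducible GTPases are all above 0, from 0.45 to 3.00, whereas Irf7 is at -0.43.

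Of the antiviral effectors, the class of Bst2, all 28 were highest in libraries 3 and 4 on the deposited scaling, beside 51.0% of all genes. Of these 28, Phf11b had passed the filter only through those libraries. Phf11b was 139 and 92.7 there, at most 8.20 in the Ly6a-low libraries and at 0 in library 5. Bcl3, which encodes a nuclear protein of the IkB family, was 682 in library 3 and 1277 in library 4, and library 8 was next at 269. Ifi35 had the narrowest range of the class, from 656 to 1293, with library 7 at 1119 near library 4 at 1252. The range of Bst2 on values with 1 added, 4.44-fold, lay below the class median of 10.9-fold. In antigen presentation, only Tapbpl, a peptide editor related to tapasin, was measured besides Tap1. Tapbpl was 849 and 590.35 in libraries 3 and 4 and 102 to 354 in the others, so its order over the libraries was not that of Tap1.

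The 7 Ly6a-low libraries were not alike in these genes. Relative to each gene's own median over these 7, the median of the 58 genes was -0.38, -0.31 and -0.45 on the log2 scale in libraries 5, 6 and 7, and 0.53 and 0.66 in libraries 8 and 9, while the median over all 2341 genes was 0 in each. Libraries 5, 6 and 7 held the 3 lowest values in 23 of the 58 genes, Iigp1 among them, beside 14.0% of all genes. Libraries 8 and 9 were both above libraries 1, 2, 5, 6 and 7 in 25 genes, with Bst2 among them except under median-of-ratios scaling, beside 18.8% of all genes. Uba7, the activating enzyme for ISG15 and chosen here after its values were seen, was 4573 and 3339 in libraries 8 and 9, against 573 to 1303 in libraries 1, 2, 5, 6 and 7. Over these 7 libraries 21 of 54 pathway genes that passed the filter there, Ly6a included, had a range of at least 4-fold, beside 20.8% of all genes. Several marker lists split in the same way. The 7 stem cell markers without Ly6a summed to 1517 and 1126 in libraries 8 and 9, against 146 to 287 in libraries 1, 2, 5, 6 and 7, and the megakaryocyte and platelet markers to 101679 and 74949, against 113341 to 141086. Single markers did not all follow these sums. Gp9 was higher in libraries 8 and 9, at 3237 and 2699, against 1592 to 2313, and Gp1ba was highest in library 8. Pf4, Treml1 and F2rl2 were lower in both. In library 9 Procr, at 17.4, and Mecom, at 9.42, lay within the range of libraries 1, 2, 5, 6 and 7. The other stem cell markers of the sum were higher in both libraries 8 and 9. The T and NK cell markers, mostly Nkg7, summed to 2236 and 6546, against 13926 to 27179, and the neutrophil markers to 2122 and 1887, against 326 to 1441. The part of these markers' cells in the split was not tested. Under scaling to the table total 38 genes were lowest in libraries 5, 6 and 7, beside 27.0% of all genes.

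Markers of other blood cells moved with some of these differences. Plasmacytoid dendritic cells are known for high Bst2 and Irf7, and of 12 listed markers only Runx2 was measured, at 42.5 and 33.2 in libraries 3 and 4 and 8.20 to 15.9 in the others; none of 10 dendritic cell markers was measured. Of 10 neutrophil markers 2 were measured, Prtn3 and Csf3r, and they summed to 12916 and 12328 in libraries 3 and 4 and to 326 to 2122 in the others. Of 10 monocyte and macrophage markers 2 were measured, Csf1r and Cd5l, which summed to 0 and 1.14 in the Ly6a-high libraries and 22.02 to 122 in the others, with both genes at 0 in library 3. Of 10 T and NK cell markers 3 were measured. Their sum, mostly Nkg7, was 723 and 1179.6 in the Ly6a-high libraries and 2236 to 27179 in the others. The remaining markers of this list went the other way. Klrb1c was 493 and 469 in the Ly6a-high libraries and at most 68.2 elsewhere, and Lck was 44.8 and 43.5 against at most 26.8. Of 9 endothelial or stromal markers 2 were measured, Emcn and Cldn5, with sums of 1213 and 2109.7 against 4.20 to 48.2. Of 10 erythroid markers 4 were measured, mostly Aqp1, with sums of 290.2 and 309 against 5788 to 8530. Rhd and Add2 did not separate the sets. Rhd was 4.72 and 9.15 in libraries 3 and 4 and 3.15 in library 8. Add2 was 3.54 in library 3, at 0 in library 4 and 2.1 in library 8. Of 6 mast cell and basophil markers only Fcer1a was measured, at 0 and 3.43 against 0 to 103, and of 8 B lineage markers only Vpreb1, at 8.26 and 5.72 against 3.26 to 12.3. The part of these cells in the interferon genes was not tested.

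The genes of the table with the profile most like each of the 4 were named by the smallest root mean square difference of centred log2(value + 1) profiles over the 9 libraries, as a description in libraries that fall into 2 sets. For Iigp1 they were Xdh, which encodes xanthine dehydrogenase (a difference of 0.44), Tnip3, an inhibitor in NF-kB signalling (0.56), and Gstm1, a glutathione transferase (0.57). Xdh was 205 in library 3 and 109.8 in library 4, at most 13.8 in the others, and 1.40 to 2.17 in libraries 5, 6 and 7. These last values lay under the 3.26 to 4.61 normalized counts that 3 reads are worth there. For Irf7 they were Orai1, the pore of a calcium channel (0.29), the immediate-early gene Ier2 (0.29) and Zfand3 (0.31). For Bst2 they were Asah1, acid ceramidase (0.15), Dscr3, a subunit of an endosomal sorting complex (0.15), and Ptpn18, a tyrosine phosphatase (0.16). Asah1 was 1111 and 943 in libraries 3 and 4 and 287 to 436 in the others. For Tap1 they were Cdc42ep3, an effector of the GTPase CDC42 (0.16), the actin-binding protein gene Cnn2 (0.17) and Gon4l (0.21). Between the 4 genes themselves Irf7 and Bst2 were closest, at 0.49, and Iigp1 and Tap1 farthest apart, at 2.54.

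Of the 59 pathway genes 44 had a window, and 19 of these (43.2%) held the response element core shown for Bst2, against 4.72% of the 1736 genes of the table with a window and 3.44% of all 32851 windows. The gamma-activated site core was held by 10 of the 44 (22.7%), against 9.39% of the genes of the table and 8.30% of all windows. All 7 inducible GTPases with a window (Gbp2, Gbp3, Gbp7, Igtp, Irgm1, Irgm2 and Tgtp2) held the response element core, as did 10 of 25 antiviral effectors, Bst2 included, and 0 of 4 IRF genes. The list consists of genes known for interferon induction, so the shares are no independent evidence about it.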

How the data were processed

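Messenger RNA of sorted bone marrow cells was sequenced. The deposited values are normalized counts (a signal that the authors scaled within each library) of 2402 genes in 9 unnamed rows, and rows were left unassigned. The submitters' processing notes name mm10, Bowtie2, STAR and DESeq, without roles or versions. How reads were counted (strand included), the annotation and the selection of genes were not given in the sources used here. Reads were recovered by dividing each row by what 1 read is worth, found from its low values (0.724 to 1.96 normalized counts), which gave whole numbers within 0.1 for 100% of values. Read totals (1790670 to 4373460) are of the table, not library depths. Intervals of a ratio are exact conditional binomial intervals at 95%, and those of a value are exact Poisson intervals. A count of 0 allows 3 reads. The filter was also applied to the Ly6a-low libraries alone, a choice made after seeing the data. Ranges use log2(value + 1). The chi-square test compared reads with 1 rate per read over 2341 genes, adjusted at 0.05, and compares libraries, not conditions.

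The 4 genes and the gene lists were chosen with earlier results of these data known. Named were the 4 genes, Ly6a, up to 3 pathway genes per role with the widest range and 1 with the narrowest, 3 like profiles per gene, and from each marker list the 2 with the highest value in any library, some of them only within a sum. Some genes taken by this rule are counted in the lists but not reported here by name. Python 3.11.15, NumPy 2.4.6, pandas 2.3.3 and SciPy 1.17.1 were used, and the steps were tested on simulated data. Alternatives were other scalings, pseudocounts, no filter and leaving out libraries.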

Additional observations from a re-analysis of the deposited data

How the results depend on the processing

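No paired analysis was possible because the rows carry no sample names. Of the values recomputed under an alternative, 80 stayed within the counting interval or within 1.5 times the count, and 17 moved further. Without the Ly6a-high libraries the highest-to-lowest ratio was 7.79 for Iigp1, 2.64 for Irf7, 1.57 for Bst2 and 1.66 for Tap1. A range of 4-fold or more was left for 21 of the 54 pathway genes that passed the filter, Ly6a included, since those libraries were gone. The share over all genes was 20.8%. Scaling to the table total gave ratios of 12.3 for Irf7 and 8.86 for Bst2, and 38 pathway genes lowest in libraries 5, 6 and 7. Median-of-ratios scaling gave 2.95 for Bst2 and 2.58 for Tap1. Leaving out 1 library at a time, the ratio was 55.2 to 230 for Iigp1, 5.31 to 7.16 for Irf7, 3.79 to 4.47 for Bst2 and 1.67 to 2.08 for Tap1; the lowest values for Iigp1 and Bst2 were without library 3, and those for Irf7 and Tap1 without library 4. The counts of pathway genes were then 42 to 52 for a range of at least 4-fold, Ly6a included, and 56 to 57 for highest values in the Ly6a-high libraries, without Ly6a. With Pearson correlation in place of the root mean square difference, 0 of the 3 most similar profiles were shared for each of the 4 genes. The counts on libraries 5 to 9 and on library 3 against library 4, and the alternatives to them, were chosen after seeing the data. Depth limits Iigp1 most, with 4 to 8 reads in libraries 5, 6 and 7.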
